A study of Homo sapiens with 3 samples.

Results

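Expression of 40 genes of DNA replication and of the passage from G1 into S phase was measured in PLC-PRF-5 cells, an established human liver hepatoma line. The list of genes was chosen with earlier results of these data known. Array probes were then taken by name, as all those whose annotated symbol, older aliases included, is one of the 40, and that step used no measured value. The 40 genes had 61 of the 47323 array probes. Of these genes 38 were above background on at least 1 array, of 10396 such genes among the 20046 with an array probe. Cells were treated for 24 h with sorafenib probe, with sorafenib or with DMSO, the solvent control, and total RNA of each culture was hybridised to 1 Illumina beadchip. Both compounds were at 10 μM by the sample labels and at 50 μM by the treatment protocol, so the dose is not settled. Sorafenib is a multikinase inhibitor used in liver cancer, and the sorafenib probe is a derivative of it made by adding a photoaffinity group together with an alkyne at its end. The comparison was made to set the expression profile under the derivative beside that under the parent drug. With 1 array per group there was no replicate, so no test could be run, and a difference below is the size of a difference between those arrays only.

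Before a cell divides it must copy its genome once. In G1 the origin recognition complex, CDC6 and CDT1 load the MCM2 to MCM7 ring onto DNA, which licenses the origin. At the start of S phase CDC45 and the GINS complex join the ring to form the active helicase, and polymerases, the sliding clamp PCNA and its RFC loaders then build the new strands. Cyclin E and the E2F transcription factors drive entry into S phase, and many genes of this machinery are well-known E2F targets. In RNA of a whole culture, fewer cells in S phase and less RNA per cell cannot be told apart.

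Values are intensities after background correction and quantile normalization, and a log2 difference of 1 is a doubling. An array probe counted as above background where its detection p-value was under 0.01, and a gene with several such array probes is given by the brightest. Intensities of different array probes depend on their sequences, so levels of different genes were not set against each other. Before normalization the mean intensity was 164 on the sorafenib probe array, 159 on the sorafenib array and 183 on the DMSO array, and 32.8%, 32.7% and 32.3% of array probes were above background on these arrays. Of 22 markers of hepatocytes and hepatoma, 20 had an array probe and 6 were above background on at least 1 array, among them ALB, KRT8 and KRT18. AFP, APOA1, SERPINA1 and TTR, which are defining liver products, were below background on every array. None of 4 endothelial markers was above background, and of the fibroblast and leukocyte markers only COL1A1, ACTA2, CD14 and CD68 were. The summed intensity of COL1A1 and ACTA2 was 228 with sorafenib probe, 202 with sorafenib and 300 with DMSO. That of CD14 and CD68 was 682, 741 and 727, and that of the 6 liver markers 4994, 5136 and 5531. The part of these shifts and of the higher mean intensity with DMSO in the results below was not tested.

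The replication genes differed little among the 3 cultures. The median log2 difference of the 38 measured genes was -0.02 for sorafenib probe against DMSO and -0.07 for sorafenib against DMSO, beside 0.00 over all genes in each comparison. GINS1, above background with sorafenib alone, is counted here at its measured value. Over the 37 members above background on all arrays the medians were -0.03 and -0.08, beside 0.00 and -0.01 over all such genes. Of the 38 genes, 21 were below 0 with sorafenib probe (55.3%, beside 50.0% of all genes) and 23 with sorafenib (60.5%, beside 50.5%). Both comparisons use the same DMSO array. No member was 1.5-fold higher or lower in either comparison. Over all genes with a value on the pair of arrays, 2.39% passed 1.5-fold upward and 2.05% downward with sorafenib probe, and 2.23% upward and 2.01% downward with sorafenib. At such shares fewer than 1 of 38 genes would pass in each direction, so a count of 0 is near the background. At least 2-fold differences were found in 0.259% of all genes upward and 0.169% downward with sorafenib probe, and in 0.169% upward and 0.119% downward with sorafenib, and in 0 members.

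**Figure D1:**
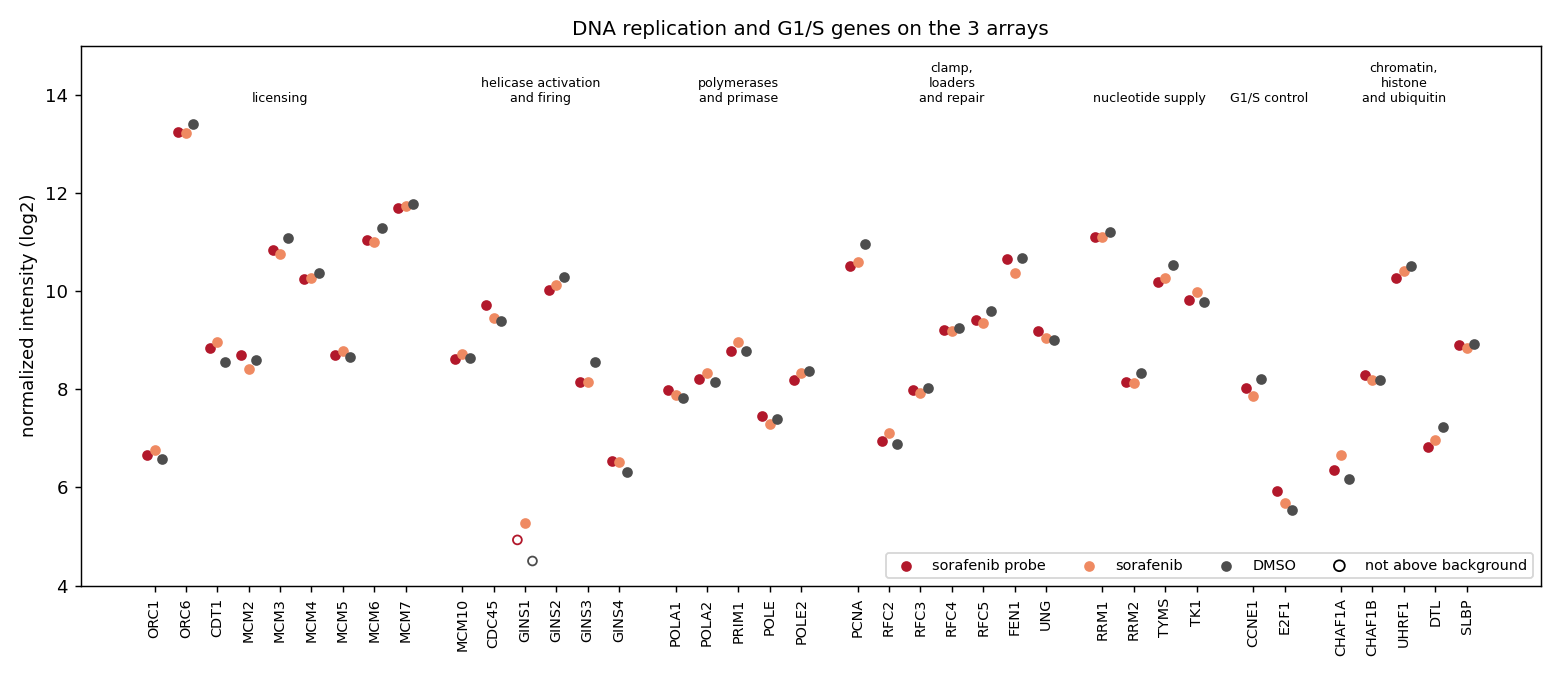
Normalized intensity (log2) of the 38 measured replication genes, grouped by role, with 1 point for each of the sorafenib probe, sorafenib and DMSO arrays and open circles for values not above background. The 3 points of a gene lie close together, and GINS1 is the only plotted gene with open circles.

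**Figure D2:**
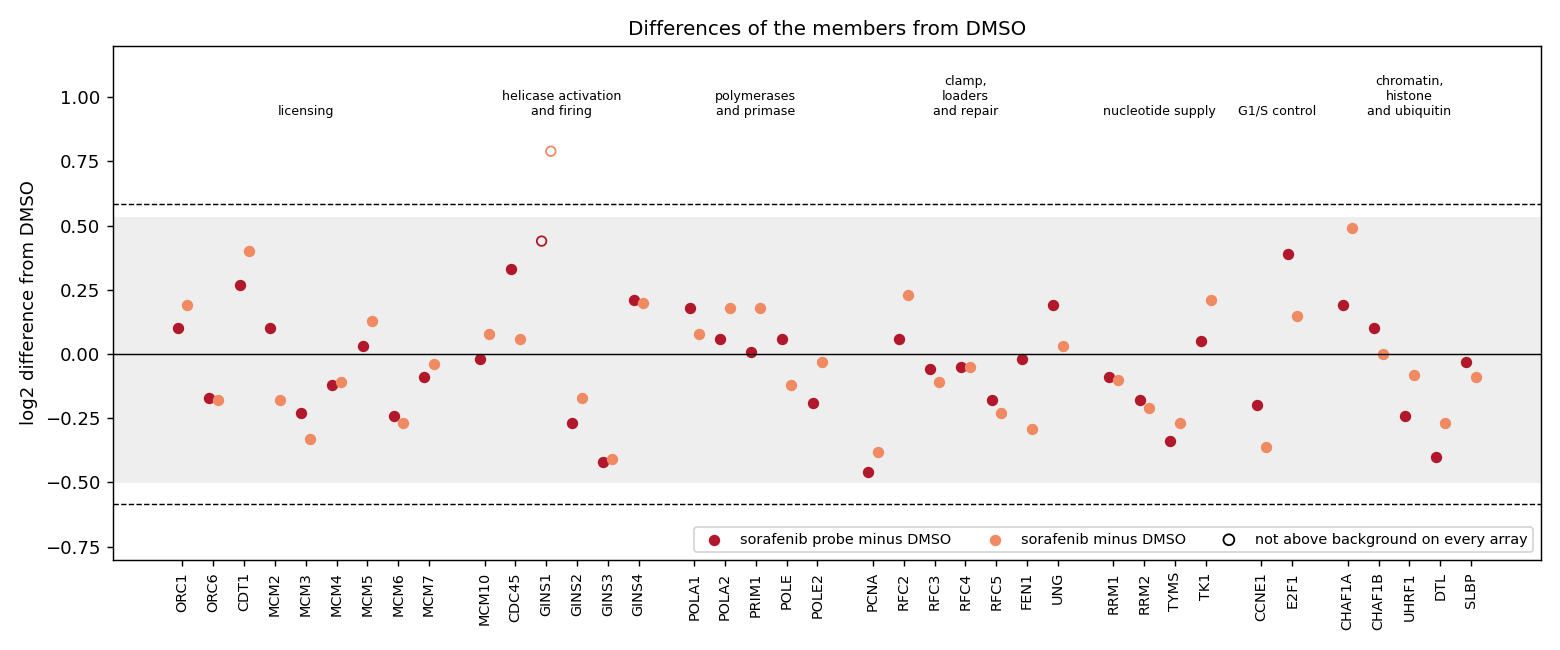
Log2 difference of each gene from DMSO, for sorafenib probe and for sorafenib, with dashed lines at 1.5-fold and a grey band for the middle 95% of other genes of like intensity with sorafenib (-0.50 to 0.53). The points of all 30 members in that intensity range lie inside the band, and the open circles at 0.79 and 0.44 are GINS1, whose difference rests on values below background.

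Most members could be set beside genes of like intensity. Among 5608 other genes above background on every array, with mean intensities between 97.3 and 1992, the middle 95% of log2 differences ran from -0.51 to 0.53 with sorafenib probe and from -0.50 to 0.53 with sorafenib. Of the 30 members in that intensity range, 0 lay outside these differences. The other 7 members above background on all arrays were dimmer (CHAF1A, E2F1 and GINS4) or brighter (MCM6, MCM7, ORC6 and RRM1) and have no matched genes here. Of the 30 members, 23 were within 1.2-fold of DMSO with sorafenib probe (76.7%) and 22 with sorafenib (73.3%), beside 71.7% of the genes of like intensity in both comparisons.

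Promoters were read to show what these genes share in sequence. Windows of 250 bases before to 50 bases after the gene start were in the RefSeq table (GRCh38.p14) for 36 of the 40 members, and CCNE2, GINS4, MCM4 and MCM5 had no entry. Any of the words TTTCCCGC, TTTCGCGC, TTTGCCGC or TTTGGCGC, forms of the E2F site, was found on either strand in 19 of the 36 windows (52.8%), against 486 of 8412 windows of genes above background (5.78%). Words on opposite strands may overlap, as in the MCM6 window, and a window was counted once. CCAAT, the NF-Y box, which holds none of these words, was in 22 of the 36 windows (61.1%), against 37.2% of genes above background. The stretches below are from the 3 genes with an E2F word wholly before the start that had the lowest mean difference from DMSO and the 3 that had the highest, among members above background on all arrays. They are shown to give the words in their surroundings, and that each holds a word was fixed by the choice. Capitals mark the E2F words, each stretch is written 5′ to 3′ on the strand of its gene, and the position is in GRCh38.p14.
PCNA (chr20:5126654-5126701, minus strand): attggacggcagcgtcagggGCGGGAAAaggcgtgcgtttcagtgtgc
DTL (chr1:212035720-212035747, plus strand): atcagagagcgtgacgtcagTTTGGCGC
TYMS (chr18:657594-657641, plus strand): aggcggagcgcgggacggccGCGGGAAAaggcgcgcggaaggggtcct
POLA1 (chrX:24693761-24693808, plus strand): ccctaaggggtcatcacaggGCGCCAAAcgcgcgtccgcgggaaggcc
E2F1 (chr20:33686386-33686425, minus strand): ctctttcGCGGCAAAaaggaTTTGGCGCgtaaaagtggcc
CDT1 (chr16:88803734-88803781, plus strand): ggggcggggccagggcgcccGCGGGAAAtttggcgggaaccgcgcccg

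The first base of the word lay at -59 in PCNA, -8 in DTL, -39 in TYMS, -137 in POLA1, -33 and -20 in E2F1 and -35 in CDT1, counted from the gene start. The mean of PCNA rests on its brightest array probe, and another gave differences of the opposite sign, 0.54 with sorafenib probe and 0.51 with sorafenib. Over the 18 measured members with an E2F word, GINS1 taken at its measured value, the median log2 difference was -0.14 with sorafenib probe and -0.11 with sorafenib. Over the 17 without one it was -0.02 with sorafenib probe and 0.00 with sorafenib. Below 0 lay 11 of the 18 with sorafenib probe and 13 with sorafenib, beside 9 and 8 of the 17 without a word. Of all genes, 50% were below 0 with sorafenib probe and 50.5% with sorafenib. For CCAAT the medians of the 21 measured members with the word were -0.09 with sorafenib probe and -0.08 with sorafenib. Those of the 14 without it were -0.03 and -0.07. A word is a match of letters and not a bound site, and these counts are a description of 1 array per group.

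**Figure D3:**
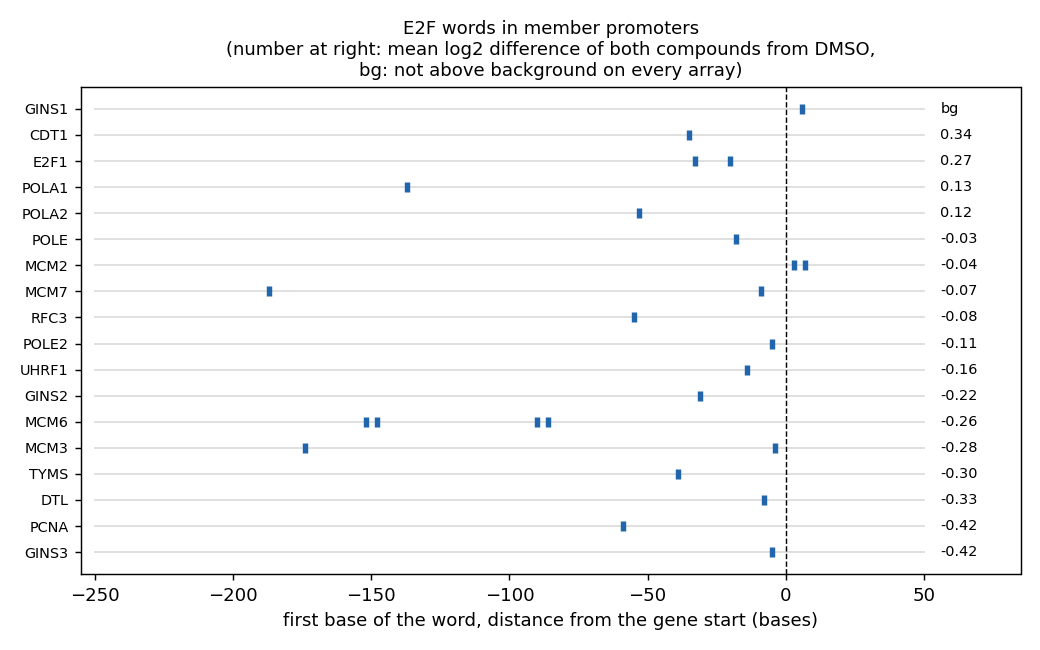
Position of each E2F word (tick, first base, in bases from the gene start at the dashed line) in the promoter windows of the 18 measured members that hold one. The number at the right of each line is the mean log2 difference of sorafenib probe and sorafenib from DMSO, from -0.42 in GINS3 and PCNA to 0.34 in CDT1. GINS1, marked bg, was not above background with sorafenib probe or DMSO and has no number, and most ticks lie within about 60 bases of the start.

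Among the 10 licensing genes, CDT1 and most of the MCM ring stood on opposite sides of DMSO by their brightest array probes. CDT1, which brings the MCM ring to the origin, had an intensity of 457 with sorafenib probe, 498 with sorafenib and 378 with DMSO. Both treated arrays were above the DMSO array, by log2 differences of 0.27 with sorafenib probe and 0.40 with sorafenib. Of MCM2 to MCM7, the subunits of the helicase ring, 4 of 6 were below 0 with sorafenib probe and 5 of 6 with sorafenib. Of all genes, 50% and 50.5% were below 0 in these comparisons. The median log2 differences of the 6 were -0.11 and -0.14. MCM3 had 1847 with sorafenib probe, 1724 with sorafenib and 2173 with DMSO, log2 differences of -0.23 and -0.33. MCM6 had 2107 with sorafenib probe, 2058 with sorafenib and 2488 with DMSO, log2 differences of -0.24 and -0.27. In both genes the DMSO array was the highest of the 3, and each difference was within 1.3-fold. MCM4 (1222 with sorafenib probe, 1232 with sorafenib, 1329 with DMSO) and MCM7 (3294, 3407 and 3507 on the same arrays) lay nearer to DMSO. A dimmer MCM7 array probe gave log2 differences of -0.04 with sorafenib probe and 0.19 with sorafenib, the latter opposite in sign to the brighter one. MCM5 had 412 with sorafenib probe, 441 with sorafenib and 404 with DMSO, which placed DMSO lowest. MCM2, at 415 with sorafenib probe, 340 with sorafenib and 386 with DMSO, lay on opposite sides of DMSO under the 2 compounds.

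ORC1 and ORC6 are subunits of the origin recognition complex, which marks where the ring is loaded. ORC1 had 102 with sorafenib probe, 109 with sorafenib and 95.1 with DMSO, and ORC6 had 9659, 9581 and 10833 on the same arrays. CDC6, the ATPase that works with CDT1 in loading the ring, was not above background on any array, with 29.6, 27.8 and 31.2, where the lowest value above background on an array was 34 to 34.8. No difference is given for it. Over the 9 measured licensing genes the median log2 difference was -0.09 with sorafenib probe and -0.11 with sorafenib.

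The 6 genes that turn the loaded ring into a working helicase held both directions. GINS3, a subunit of the GINS complex, had 281 with sorafenib probe, 284 with sorafenib and 378 with DMSO. It was 1.34-fold lower with sorafenib probe and 1.33-fold lower with sorafenib, the lowest of any member with sorafenib. GINS2, another subunit, had 1035, 1111 and 1248 on the same arrays, and GINS4 had 92.3 with sorafenib probe, 91.9 with sorafenib and 79.9 with DMSO, log2 differences of 0.21 and 0.20. The 3 subunits of this 1 complex thus did not share a direction, with GINS2 and GINS3 below DMSO and GINS4 above it in both treated cultures.

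GINS1, the remaining subunit, was above background on the sorafenib array alone. Its intensity was 30.6 with sorafenib probe, 39.0 with sorafenib and 22.6 with DMSO, so it entered the measured genes only through the array where it was high. Against the lowest intensity that was above background on the DMSO array it was at least 1.12-fold higher with sorafenib, and against the same limit on the sorafenib probe array at least 1.15-fold lower with sorafenib probe than with sorafenib. No fold is given for sorafenib probe against DMSO, since neither value was above background. CDC45, which joins GINS and the ring in the active helicase, had 845 with sorafenib probe, 701 with sorafenib and 674 with DMSO. Its log2 difference from DMSO was 0.33 with sorafenib probe and 0.06 with sorafenib. MCM10, which helps to activate the helicase, had 393, 421 and 397 on the sorafenib probe, sorafenib and DMSO arrays.

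The 5 polymerase and primase genes all lay within 1.2-fold of DMSO under both compounds. Their median log2 difference was 0.06 with sorafenib probe and 0.08 with sorafenib. POLA1, the catalytic subunit of polymerase alpha, which starts each new strand, had 255 with sorafenib probe, 238 with sorafenib and 226 with DMSO, log2 differences of 0.18 and 0.08. POLA2, its accessory subunit, had 295, 321 and 283 on these arrays, and PRIM1, the primase that lays the RNA primer, had 443, 496 and 439. By these array probes DMSO was the lowest array in the 3 genes. A second PRIM1 array probe had 451 with sorafenib probe, 410 with sorafenib and 419 with DMSO, which placed sorafenib lowest. POLE, the catalytic subunit of the leading-strand polymerase epsilon, had 176 with sorafenib probe, 156 with sorafenib and 169 with DMSO. Its partner POLE2 had 290 with sorafenib probe, 324 with sorafenib and 331 with DMSO, log2 differences of -0.19 and -0.03, which made DMSO the highest array for that gene.

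Of the 7 genes of the clamp, its loaders and strand repair, 5 were below 0 under each compound. Of all genes, 50% were with sorafenib probe and 50.5% with sorafenib. The medians of the 7 were -0.05 for sorafenib probe and -0.11 for sorafenib on the log2 scale. PCNA, the clamp that holds polymerases on DNA, had 1462 with sorafenib probe, 1540 with sorafenib and 2010 with DMSO. It was 1.37-fold lower with sorafenib probe, the lowest member in that comparison, and 1.30-fold lower with sorafenib, but a second array probe for the gene ran the other way, as given below with the other repeated genes. RFC2 to RFC5 are subunits of the loader that opens and closes the clamp. RFC5 had 678 with sorafenib probe, 658 with sorafenib and 771 with DMSO, RFC4 had 589, 586 and 608, and RFC3 had 252, 243 and 262. By these array probes the 3 loader genes were highest with DMSO. A second RFC4 array probe had 579 with sorafenib probe, 598 with sorafenib and 588 with DMSO, which placed sorafenib highest. RFC2, at 123 with sorafenib probe, 138 with sorafenib and 118 with DMSO, was lowest with DMSO, with log2 differences of 0.06 and 0.23. FEN1, the nuclease that trims Okazaki fragments, had 1611 with sorafenib probe, 1330 with sorafenib and 1631 with DMSO, so by this array probe the sorafenib array alone was low, with a log2 difference of -0.29. A dimmer FEN1 array probe had 276 with sorafenib probe, 260 with sorafenib and 250 with DMSO, which placed DMSO lowest, with a sorafenib difference of 0.06. UNG, which removes uracil from DNA, had 586 with sorafenib probe, 526 with sorafenib and 515 with DMSO.

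Of the 4 genes of nucleotide supply, 3 were below 0 under each compound, beside 50% of all genes with sorafenib probe and 50.5% with sorafenib. Their median log2 difference was -0.13 for sorafenib probe and -0.15 for sorafenib. TYMS, the enzyme that makes thymidylate, had 1167 with sorafenib probe, 1226 with sorafenib and 1476 with DMSO, with log2 differences of -0.34 with sorafenib probe and -0.27 with sorafenib. RRM1 and RRM2, the large and small subunits of ribonucleotide reductase, which makes deoxynucleotides, were closer to DMSO. RRM1 had 2215 with sorafenib probe, 2193 with sorafenib and 2356 with DMSO, and RRM2 had 284, 279 and 321 on the same arrays. TK1, which salvages thymidine, was lowest with DMSO, at 903 with sorafenib probe, 1009 with sorafenib and 875 with DMSO, log2 differences of 0.05 and 0.21.

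The G1/S regulators CCNE1 and E2F1 stood on opposite sides of DMSO. CCNE1, a cyclin E gene, had 260 with sorafenib probe, 234 with sorafenib and 299 with DMSO, and its log2 difference from DMSO was -0.20 with sorafenib probe and -0.36 with sorafenib. E2F1, a transcription factor that activates S phase genes, had 60.7 with sorafenib probe, 51.2 with sorafenib and 46.2 with DMSO. It was 1.31-fold higher with sorafenib probe and 1.11-fold higher with sorafenib. E2F1 was the dimmest member above background on every array. Over the alternative settings its log2 difference ran from 0.24 to 0.55 with sorafenib probe and from 0.03 to 0.22 with sorafenib. CCNE2, the other cyclin E gene, was below background on all arrays, at 20.1, 19.4 and 18.7 with sorafenib probe, sorafenib and DMSO.

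The 5 genes of chromatin, histones and ubiquitin held CHAF1A above DMSO and DTL below it. CHAF1A, the large subunit of the factor that places histones on new DNA, had 81.8 with sorafenib probe, 101 with sorafenib and 71.9 with DMSO. It was 1.41-fold higher with sorafenib, the highest of the members above background on every array, and 1.14-fold higher with sorafenib probe. Its partner CHAF1B had 312 with sorafenib probe, 291 with sorafenib and 292 with DMSO. With sorafenib the log2 difference was 0.49 for CHAF1A and 0.00 for CHAF1B. The middle 95% of all genes above background on every array ran from -0.55 to 0.56 with sorafenib. DTL, the substrate receptor of a ubiquitin ligase that removes CDT1 in S phase, had 114 with sorafenib probe, 124 with sorafenib and 150 with DMSO. It was 1.32-fold lower with sorafenib probe and 1.21-fold lower with sorafenib. Only RNA was measured here, and a link between DTL and CDT1 was not tested. UHRF1, which carries DNA methylation to new strands, had 1234 with sorafenib probe, 1374 with sorafenib and 1454 with DMSO. SLBP, which binds the stem-loop of histone mRNAs, had 480, 460 and 489 on the same arrays.

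The members lay closer together between the compounds than between either compound and DMSO, by their count within 1.2-fold, and so did all genes. The median log2 difference of sorafenib probe against sorafenib was 0.00, with 19 members above 0 and 19 below, GINS1 taken at its measured value. Of the 38 members, 33 were within 1.2-fold (86.8%), beside 77.9% of all genes. Against DMSO 63.7% of all genes were within 1.2-fold with sorafenib probe and 63.2% with sorafenib. Between the compounds 27 of the 30 members in the intensity range were within 1.2-fold (90%), beside 89.5% of the genes of like intensity, so the members were near that share. No member was 1.5-fold apart, where 0.736% of all genes passed 1.5-fold upward and 0.547% downward with sorafenib probe, and 0.0199% and 0.0298% passed 2-fold in these directions. The members with the highest log2 differences were MCM2 (0.29), FEN1 (0.28), CDC45 (0.27) and E2F1 (0.24), all higher with sorafenib probe. CHAF1A (-0.30) was the lowest of the members above background on every array. The middle 95% of genes of like intensity ran from -0.32 to 0.33, and 0 of the 30 members in that intensity range lay outside it. With 1 array each there is no interval for the difference of a gene, and whether the compounds act alike on them was not tested.

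**Figure D4:**
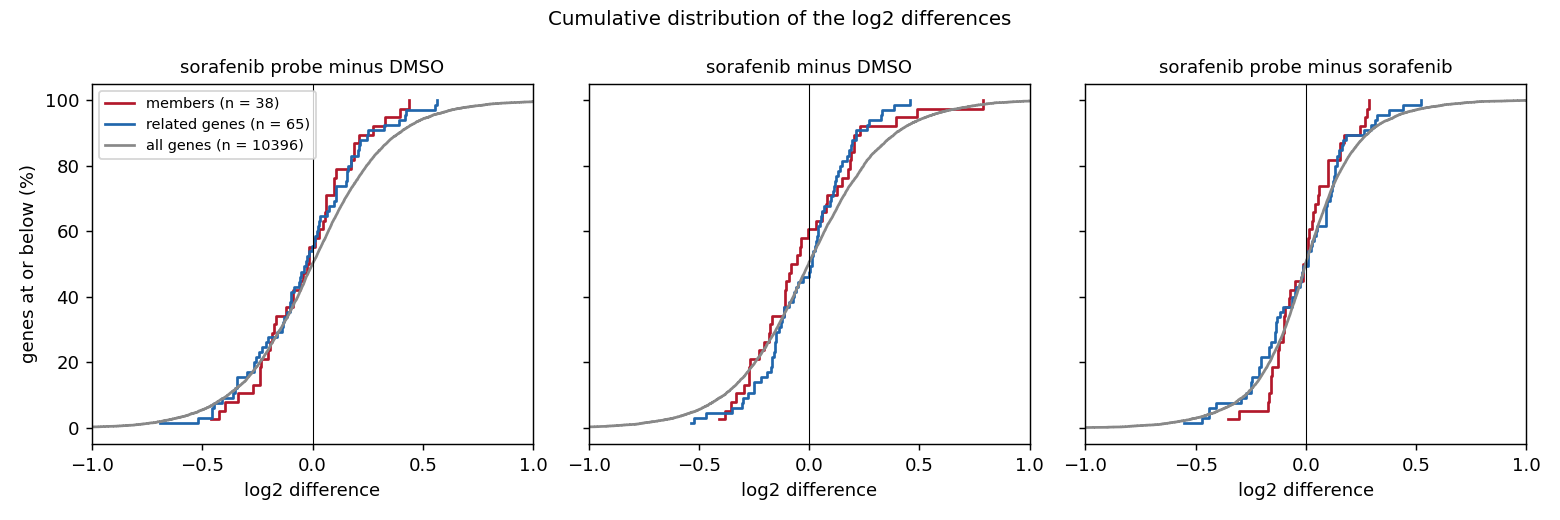
Share of genes (%) at or below each log2 difference, for sorafenib probe minus DMSO, sorafenib minus DMSO and sorafenib probe minus sorafenib, drawn for the 38 members, the 65 related genes and all 10396 genes. The lines run close to each other, with the members slightly left of all genes in the middle of the sorafenib panel, where their median is -0.07.

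How far a single value can be read was seen from 12 members with more than 1 array probe above background. The sign of the difference from DMSO was the same for both array probes in 8 of 12 genes with sorafenib probe and in 5 of 12 with sorafenib. Of 2514 such genes on the whole array it was the same in 61.3% with sorafenib probe and 61.1% with sorafenib. The median log2 gap between the array probes of a member was 0.16 with sorafenib probe and 0.22 with sorafenib, beside 0.20 and 0.22 over all such genes. Of the 12 members PCNA had the widest gap. Its second array probe had 167 with sorafenib probe, 164 with sorafenib and 115 with DMSO, log2 differences of 0.54 and 0.51, against -0.46 and -0.38 for the brighter one. Another PCNA array probe was below background on every array.

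RFC2 was above DMSO by both of its array probes, and the dimmer one, at 55.5 with sorafenib probe, 72.3 with sorafenib and 47.5 with DMSO, had the higher log2 differences, 0.23 and 0.61. For ORC6 the second array probe had 307 with sorafenib probe, 373 with sorafenib and 302 with DMSO, so that its sorafenib difference was 0.30 where the brighter one gave -0.18. MCM3 stayed below DMSO by both array probes with sorafenib (-0.33 and -0.15) but not with sorafenib probe (-0.23 and 0.02). SLBP, RFC3 and MCM4 were below DMSO by both array probes under both compounds.

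**Figure D5:**
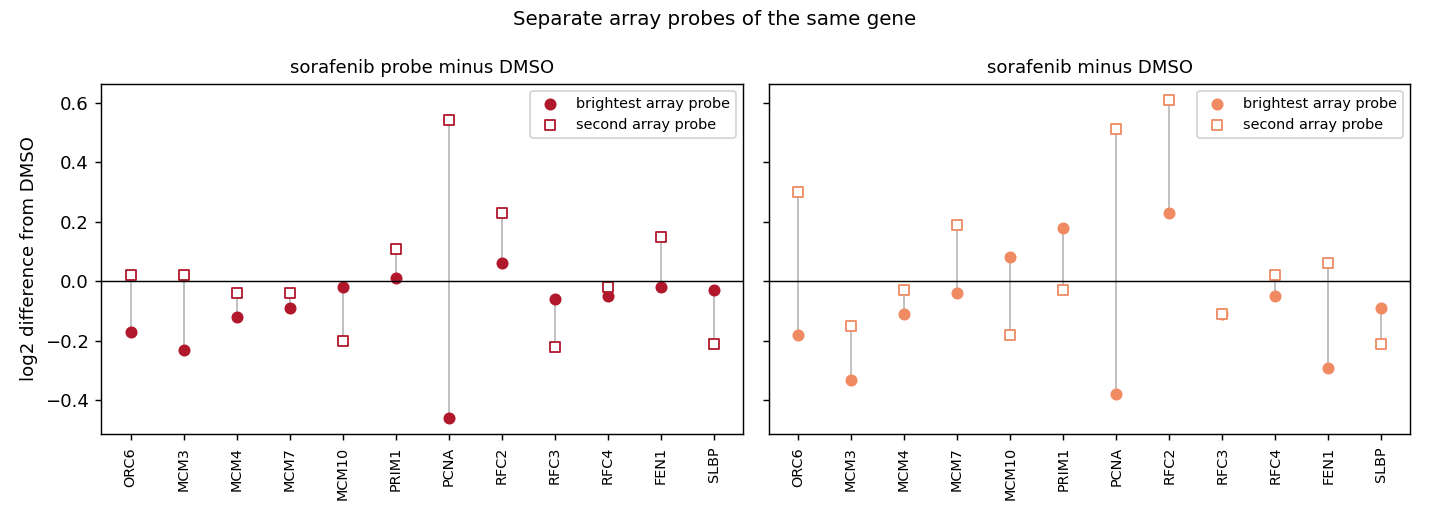
Log2 difference from DMSO for the 12 members with 2 array probes above background, with filled circles for the brightest array probe, open squares for the second and a grey line between them, in a panel for sorafenib probe and a panel for sorafenib. PCNA has the longest line in both panels, from -0.46 to 0.54 with sorafenib probe and from -0.38 to 0.51 with sorafenib.

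A wider list of 80 other genes of replication, the G1/S switch and S phase repair gave a like picture. Of these, 74 had an array probe and 65 were above background on at least 1 array. Their median log2 difference was -0.03 with sorafenib probe, with 36 of 65 below 0 (55.4%, beside 50% of all genes). With sorafenib it was 0.01, with 30 below 0 (46.2%, beside 50.5%). None was 1.5-fold higher or lower in any comparison, counting a gene below background on 1 array by its bound. Of all genes, 2.39% were 1.5-fold higher and 2.05% lower with sorafenib probe than with DMSO. The shares were 2.23% and 2.01% with sorafenib, and 0.736% and 0.547% between the compounds, so few of 65 genes would pass. ORC4, not above background with sorafenib probe, was 1.61-fold lower there than with DMSO at its measured value and at least 1.46-fold lower by its bound.

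Among the related genes with the lowest means was GMNN, geminin, the inhibitor of CDT1, with 231 with sorafenib probe, 239 with sorafenib and 330 with DMSO, log2 differences of -0.52 and -0.47. CDKN1A, the p21 inhibitor of cyclin-dependent kinases, had 1583 with sorafenib probe, 1466 with sorafenib and 2107 with DMSO, log2 differences of -0.41 and -0.52. RPA1, the large subunit of the protein that coats single-stranded DNA, had 897, 964 and 1230, and DCK, which salvages deoxycytidine, had 201, 160 and 232 on the same arrays. RPA1 had 3 array probes above background on at least 1 array and DCK 2, and only the brightest of each is given. GMNN, CDKN1A, RPA1 and DCK were chosen for the lowest means, so it follows largely from the choice that DMSO was their highest array.

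At the other end RNASEH2B, a subunit of the enzyme that removes ribonucleotides from DNA, had 149 with sorafenib probe, 156 with sorafenib and 114 with DMSO, log2 differences of 0.39 and 0.46. RNASEH2C, another subunit, had 69.5, 65.2 and 51.8 on these arrays. LIG1, the ligase that joins Okazaki fragments, had 193 with sorafenib probe, 181 with sorafenib and 144 with DMSO. CHTF18, of an alternative clamp loader, had 78.6 with sorafenib probe, 57.9 with sorafenib and 53.2 with DMSO. Its log2 differences were 0.56 with sorafenib probe and 0.12 with sorafenib.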

How the data were processed

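Total RNA of PLC-PRF-5 cells was labelled as biotinylated cRNA and hybridised to 3 Illumina beadchips, 1 for each group. The authors deposited an intensity and a detection p-value for each of 47323 array probes. One deposited intensity table is named as not normalized but holds quantile-normalized values with a floor of 1, and the other holds background-subtracted intensities that were not normalized. The second was used here with the detection p-values that the authors deposited. For the scanner software and the array's genome build, the sources used here give no name.

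Background was modelled from the detection p-values by normexp (limma 3.58.1, R 4.3.3, offset 16), then values were quantile normalized and taken to log2, and summaries were made with Python 3.11.15, numpy 2.4.6 and pandas 2.3.3. A detection p-value under 0.01 on any array kept an array probe (17427 in all). The platform annotation gave 1 symbol for 30113 array probes, several for 8, and did not list 17202. Symbols were updated through Entrez identifiers to RefSeq for 99.9% of the 30113. Where a gene was above background on 1 array of a pair, the difference was bounded by the lowest intensity above background on the other. The precision is limited by the number of arrays. A fold of 1.5 was used to count genes, with 2 as an alternative, and the steps were tested on simulated data.

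The members and lists were chosen with earlier results of these data known. All 40 members are accounted for. From each role the genes with the lowest and highest mean difference from DMSO are given with both differences (GINS1, partly below background, with bounds, and GINS4 beside it), and related genes are named as the 4 lowest and 4 highest by that mean among those above background on all arrays. In all, 9 alternatives were run, covering background offset, the authors' normalized table, scaling, detection limit, filter, choice of array probe and fold.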

Additional observations from a re-analysis of the deposited data

How the results depend on the processing

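With 1 array per group no replicate could be left out. Signal over background limits GINS1, CDC6 and CCNE2, and array probes of the same gene had the same sign in only 5 of 12 members with sorafenib. No paired analysis was possible because each group had 1 array and no test was run. The counts of members at 1.5-fold stayed at 0 in every comparison and direction, except as follows. Under the quantile-normalized values as deposited, 1 member was 1.5-fold higher with sorafenib (CHAF1A, log2 difference 0.60). With no detection filter 1 was (GINS1, taken at its measured value). With no normalization between arrays 2 members were 1.5-fold lower with sorafenib probe (GINS3 and PCNA) and 1 with sorafenib (GINS3). That setting moved the median of the members to -0.20 with sorafenib probe and -0.28 with sorafenib, but the median of all genes also moved, to -0.16 and -0.19, so that the members lay -0.04 and -0.09 from all genes. Under it 5.85% of all genes were 1.5-fold lower and 1.14% higher with sorafenib probe, and 6.78% lower and 0.816% higher with sorafenib. Under the other alternatives the medians ran from -0.03 to 0.00 with sorafenib probe and from -0.09 to -0.02 with sorafenib. The mean of the PCNA array probes above background in place of the brightest gave log2 differences of 0.04 with sorafenib probe and 0.06 with sorafenib, so the direction of PCNA depends on that choice. Leaving aside the setting without normalization, the sign of the difference from DMSO was kept in all alternatives by 36 of 38 members with sorafenib probe (not by FEN1 and PCNA) and by 33 with sorafenib (not by MCM10, MCM7, ORC6, PCNA and UNG). Counting that setting too, 26 members kept it with sorafenib probe and 28 with sorafenib.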

Other observations

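RNASEH2A, the catalytic subunit of ribonuclease H2, was looked at after the values of its partners were seen. It had 193 with sorafenib probe, 212 with sorafenib and 163 with DMSO, log2 differences of 0.25 and 0.39. RNASEH2B and RNASEH2C were named above for their high means, so their place above DMSO followed from that choice. RNASEH2A also lay above DMSO under both compounds, by less than 1.5-fold. Each group had 1 array, and both comparisons use the same DMSO array.

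Among the related genes, HELLS and RECQL4, also chosen after their values were seen, were the lowest and the highest of sorafenib probe against sorafenib. HELLS, a chromatin remodelling ATPase, had 96.3 with sorafenib probe, 141 with sorafenib and 132 with DMSO, a log2 difference of -0.55 between the compounds. It had 2 array probes above background on at least 1 array, and only the brightest is given. RECQL4, a helicase with a part in starting replication, had 72.6 with sorafenib probe, 50.5 with sorafenib and 49.4 with DMSO, a log2 difference of 0.52 between the compounds.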
